A study of Mus musculus with 6 samples.

Results

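Chemokine ligand genes were followed in messenger RNA profiles of mouse thymocytes labelled double-negative. The genes were all rows whose symbol starts with Ccl, Cxcl, Xcl or Cx3cl and a digit, which gave 39 of the 22298 genes listed. Cells were sorted by flow cytometry from the thymus of C57BL/6 mice. Double-negative cells are T cell precursors without CD4 or CD8 on their surface, and the protocol names their second stage, DN2. The control genotype was Toxf/f, in which Tox, whose product binds DNA and is needed for T cells to develop, is flanked by sites for recombination. Toxf/fPdcd1Cre mice had the same Tox alleles together with a Cre whose name refers to Pdcd1 (encoding PD-1), and nothing in the labels limits that Cre to 1 cell type. No treatment was given. Mice were 3 weeks old for replicates 1 and 2 of either genotype and 4 weeks old for replicate 3, which makes 3 samples per genotype. The deposited values of Toxf/f replicates 1 and 2 were identical, so these were counted as 1 library, called the shared Toxf/f library below, and 2 Toxf/f libraries were compared with 3 Toxf/fPdcd1Cre libraries. Whether the samples are from separate animals is not stated, and p-values therefore refer to the spread among these libraries, which may be technical.

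Chemokines are small secreted proteins that bind G protein-coupled receptors and direct the movement of cells along their gradients. In the thymus, epithelial cells of the cortex are known to make CCL25 and CXCL12, which act on CCR9 and CXCR4 of immature thymocytes. Epithelial and dendritic cells of the medulla are known to make CCL19 and CCL21, which draw CCR7-bearing cells inward after positive selection, and CCL17 and CCL22, which act on CCR4. CXCL9, CXCL10 and CXCL11 are made on exposure to interferon and bind CXCR3, while CCL5, CCL3, CCL4 and XCL1 are products of activated lymphocytes.

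The libraries held 14245492 to 16199195 estimated counts, and Tox itself was at 121 and 105 CPM (counts scaled to the effective library size) in Toxf/f and at 19.2, 16.4 and 13.8 CPM in Toxf/fPdcd1Cre libraries. Its log2 fold change was -2.78 ± 0.161 (SE; adjusted p = 6.72e-06 by Benjamini-Hochberg from the quasi-likelihood test of edgeR). The exact permutation test of this gene, two-sided, gave p = 0.1, the smallest value that 2 against 3 libraries allow. Cd4 and Cd8a stood at 718 to 982 CPM and 1395 to 2017 CPM in the libraries, and the thymic epithelial genes Prss16 and Krt8 at 900 to 1268 CPM and 320 to 448 CPM, so the name double-negative is used here only as the labels give it. Toxf/fPdcd1Cre replicate 1 stood apart from the other libraries, with 0.0683 CPM of the chromosome Y gene Ddx3y against 53.8 to 81.6 CPM, and results that change by leaving it out are given both ways. In bulk RNA, fewer cells of a type and less RNA per cell cannot be told apart, and this holds for every gene below.

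Chemokines of the medulla, those induced by interferon and Ccl5 were lower in Toxf/fPdcd1Cre libraries, whereas Ccl25 and Cxcl12 of the cortex did not pass the test. Of the 39 genes 30 had enough counts to be tested. Among them 8 fell, or 26.7%, where 1.51% of all 14121 genes tested were called as lower: Ccl22, Ccl21b, Cxcl9, Ccl20, Ccl19, Ccl5, Cxcl10 and Ccl21a. No chemokine gene was called as higher, where 0.135% of all genes were, and 1.64% of all genes were called in either direction. All 8 were among the 24 chemokine genes with a mean of at least 1 CPM, a level at which 1.54% of all tested genes were called as lower. At an unadjusted p under 0.05 in the same edgeR fit, 18 of the 30 were lower, beside 7.26% of all genes, and 0 were higher, beside 3.08%, and DESeq2 also called 0 as higher. The median log2 fold change of the tested members was -1.22 and that of all tested genes 0.0252.

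The filter on low counts bears on part of these genes. In 7 of the 30, fewer than 2 Toxf/fPdcd1Cre libraries reached the filter's level of 0.649 CPM, and these were Ccl2, Ccl24, Ccl27b, Cxcl1, Cxcl2, Cxcl3 and Cxcl5. None of the 8 genes that fell is among them. Of the 18 genes lower at an unadjusted p under 0.05, 4 are (Ccl2, Ccl27b, Cxcl1 and Cxcl2), which had to differ to be tested, and 14 are not. Counted over all 39 genes without a filter, 31 had a lower mean in Toxf/fPdcd1Cre libraries, 6 a higher mean and 2 no count in any library after rounding. The 3 Toxf/fPdcd1Cre libraries lay below both Toxf/f libraries in 22 of the 39 genes, beside 11.8% of all listed genes, and above both in 2, beside 8.64%.

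**Figure D1:**
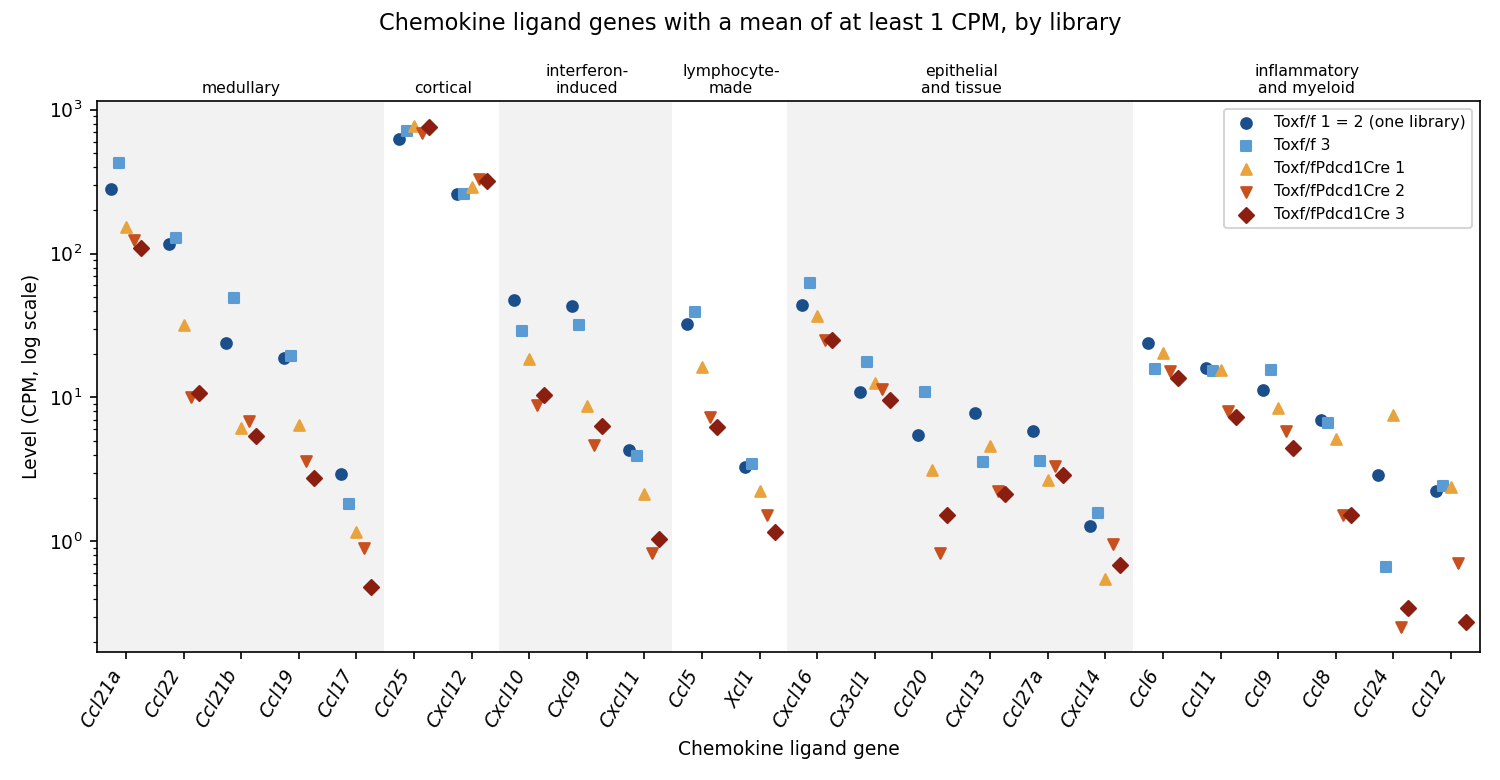
Level in CPM (log axis) of each of the 24 chemokine ligand genes with a mean of at least 1 CPM, 1 symbol per library, grouped by class. Ccl25 and Cxcl12 lie at similar levels in all 5 libraries, while the medullary and interferon-induced genes are lower in the Toxf/fPdcd1Cre libraries, with replicate 1 the highest of these for Ccl22, Ccl19, Cxcl9 and Cxcl10.

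Among medullary chemokines 4 of 5 tested genes fell. Ccl22, a ligand of CCR4 made by medullary epithelium and dendritic cells, had 1834 and 2145 counts in Toxf/f libraries and 468, 159 and 155 counts in Toxf/fPdcd1Cre libraries. All Toxf/fPdcd1Cre libraries lay well below the Toxf/f ones, and replicate 1 lay between these and the other libraries of its genotype. The log2 fold change was -2.81 ± 0.376 (SE; adjusted p = 0.00302, edgeR), and -3.61 without Toxf/fPdcd1Cre replicate 1 (adjusted p = 6.43e-05). The gene lies at chr8:94745590-94751699 on the plus strand of GRCm38 and is protein-coding. The call ended without either Toxf/f library (adjusted p = 0.0715 without the shared Toxf/f library and 0.102 without replicate 3, edgeR).

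Ccl17, the second ligand of CCR4, was far less abundant, at 2.95 and 1.81 CPM in Toxf/f and 1.16, 0.894 and 0.481 CPM in Toxf/fPdcd1Cre libraries. These groups did not overlap either, but with -1.48 ± 0.513 on the log2 scale it did not pass (adjusted p = 0.273, edgeR). On chromosome 8 the gene Cx3cl1, which encodes the membrane-bound chemokine fractalkine, lies between Ccl22 and Ccl17, 20.3 kb from the first and 28.03 kb from the second. Cx3cl1 was at 10.9 and 17.6 CPM in Toxf/f and 12.6, 11.5 and 9.56 CPM in Toxf/fPdcd1Cre libraries, which overlap, at -0.34 ± 0.238 on the log2 scale (adjusted p = 0.728, edgeR). The ratio of Ccl22 to Cx3cl1 in FPKM (fragments normalised for transcript length and sequencing depth), which does not depend on the scaling of libraries, was 16.1 and 10.99 in Toxf/f and 3.78, 1.32 and 1.67 in Toxf/fPdcd1Cre libraries. The ratio was higher in both Toxf/f libraries than in any other, and the exact permutation test gave the smallest possible p of 0.1 (two-sided).

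Ccl19, a ligand of CCR7 (chr4:42754525-42756577, minus strand), had 294 and 320 counts in Toxf/f and 94, 57 and 40 counts in Toxf/fPdcd1Cre libraries. The 2 Toxf/f libraries were nearly equal in CPM, at 18.8 and 19.3, and all Toxf/fPdcd1Cre libraries were at 6.42 CPM or less. The log2 fold change was -2.16 ± 0.298 (adjusted p = 0.00366, edgeR), and the call ended without the shared Toxf/f library (adjusted p = 0.0849) or without Toxf/f replicate 3 (adjusted p = 0.111).

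Ccl21a, the most abundant medullary chemokine gene in these libraries, was at 325 and 510 FPKM in Toxf/f and 181, 139 and 120 FPKM in Toxf/fPdcd1Cre libraries. The gene (chr4:42772860-42773993, minus strand) encodes a CCR7 ligand of medullary epithelium and lies 16.3 kb from Ccl19. Its log2 fold change was -1.46 ± 0.192 (adjusted p = 0.00301, edgeR), with no overlap of the groups. The call ended without Toxf/f replicate 3, the library with the highest level (adjusted p = 0.102). Ccl21b (chr4:42255767-42256432, plus strand) was at 23.8 and 48.8 CPM in Toxf/f and 6.15, 6.83 and 5.37 CPM in Toxf/fPdcd1Cre libraries, or -2.57 ± 0.269 on the log2 scale (adjusted p = 0.000574, edgeR) that passed with any 1 library left out and was -1.96 without Toxf/f replicate 3.

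The Ccl21 genes are near-identical copies, so counting may split reads between them and each single value is uncertain. Over the 402 bases that their GENCODE transcripts share, Ccl21a and Ccl21b differ at 2 positions, and the Ccl21b transcript equals that of Gm10591, which has the same deposited counts as Ccl21b in every library. The differences are T84A and C194T, counted from the first base of the Ccl21b transcript with the Ccl21a base first. The stretches around them are shown because only reads that cover one of them can tell these transcripts apart within the shared part, and capitals mark the differing base.
Ccl21a around position 84: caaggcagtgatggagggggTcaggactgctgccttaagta
Ccl21b around position 84: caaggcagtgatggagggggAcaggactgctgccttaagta
Ccl21a around position 194: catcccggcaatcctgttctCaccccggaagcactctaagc
Ccl21b around position 194: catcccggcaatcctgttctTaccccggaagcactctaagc
With the counts of Ccl21a, Ccl21b, Ccl21d and Gm10591 summed, an alternative added after seeing the data, the level was 327 and 526 CPM in Toxf/f and 165, 139 and 120 CPM in Toxf/fPdcd1Cre libraries. The sum does not depend on how reads were divided among copies, provided that each read was counted once among them, which was not checked. It fell by 1.59 ± 0.199 (SE) on the log2 scale (adjusted p = 0.00248, edgeR). Ccl21d, a further copy, held at most 0.05 estimated counts in a library and was not tested.

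**Figure D2:**
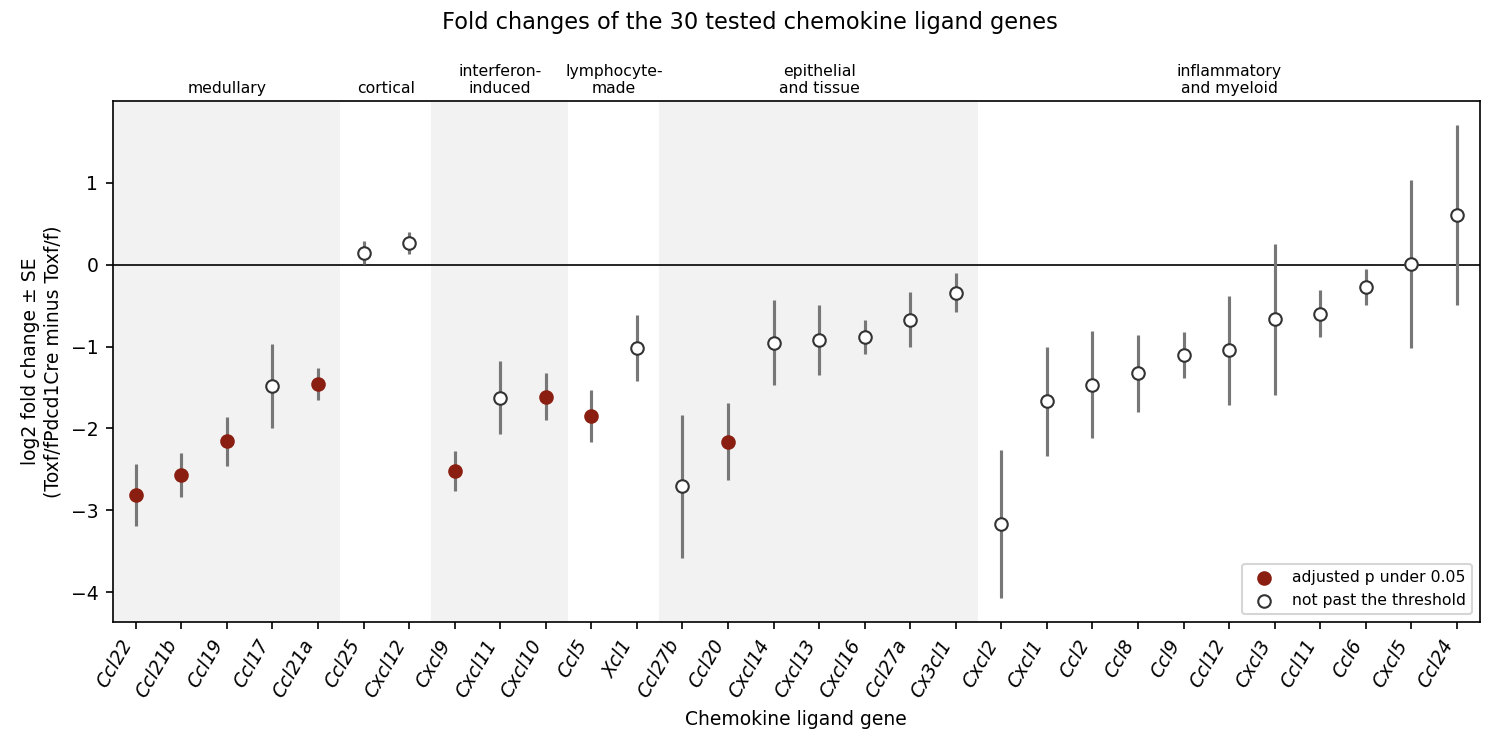
Fitted log2 fold change (Toxf/fPdcd1Cre minus Toxf/f, y axis, error bars 1 SE) of the 30 tested chemokine ligand genes, grouped by class, filled where the adjusted p was under 0.05. The 8 filled points lie between -2.81 and -1.46, and the cortical genes Ccl25 and Cxcl12 lie at 0.15 and 0.27.

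Both chemokines of the cortex had fold changes above 0. Ccl25, the ligand of CCR9, was the most abundant chemokine gene per length, at 602 and 691 FPKM in Toxf/f and 744, 634 and 685 FPKM in Toxf/fPdcd1Cre libraries, and ranked 110 among all listed genes by mean FPKM. The genotypes overlapped, and the log2 fold change was 0.15 ± 0.138 (adjusted p = 0.836, edgeR), with -0.13 and 0.42 at 2 SE to either side. Cxcl12, the ligand of CXCR4, was at 121 and 124 FPKM in Toxf/f and 130, 144 and 140 FPKM in Toxf/fPdcd1Cre libraries. Here each Toxf/fPdcd1Cre library lay above both Toxf/f libraries, by 0.27 ± 0.132 on the log2 scale, which missed the threshold (adjusted p = 0.525, edgeR). Ccl25 (chr8:4325210-4360020) overlaps Elavl1 on the opposite strand, so if counting ignored strand, some of its reads may belong there.

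Measured against Ccl25 in the same library, the medullary genes also differed between genotypes. The FPKM ratio of Ccl21a to Ccl25 was 0.540 and 0.738 in Toxf/f and 0.243, 0.219 and 0.175 in Toxf/fPdcd1Cre libraries, and that of Ccl22 to Ccl25 was 0.0891 and 0.0873 against 0.0199, 0.00698 and 0.00671. Both ratios separated the genotypes, with a two-sided exact permutation p = 0.1, the smallest possible. The ratio of Cxcl12 to Ccl25 was 0.201 and 0.179 in Toxf/f and 0.175, 0.227 and 0.204 in Toxf/fPdcd1Cre libraries (exact permutation p = 0.6), so that these 2 cortical genes kept overlapping proportions. Of 9 ratios computed, these 3 and that of Ccl22 to Cx3cl1 are given here, and the exact permutation test cannot reach a threshold of 0.05 for any of them.

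Interferon-induced chemokines were lower as well, 2 of 3 past the test. Cxcl9, which binds CXCR3 and is induced mainly by interferon-gamma, had 672 and 533 counts in Toxf/f and 127, 73 and 92 counts in Toxf/fPdcd1Cre libraries. Every Toxf/fPdcd1Cre library was below both Toxf/f libraries by a wide gap. The log2 fold change was -2.52 ± 0.239 (adjusted p = 0.000474, edgeR), and the call held with each of the 5 libraries left out. Cxcl10 had 747 and 484 counts in Toxf/f and 271, 138 and 152 counts in Toxf/fPdcd1Cre libraries, and fell by 1.61 ± 0.289 on the log2 scale (adjusted p = 0.0172, edgeR). It lost its call without the shared Toxf/f library (adjusted p = 0.305), with Toxf/f replicate 3 left out (0.0963) and with Toxf/fPdcd1Cre replicate 3 left out (0.0575).

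Cxcl11, annotated as a polymorphic pseudogene in GENCODE, was at 4.29 and 3.92 CPM in Toxf/f and 2.12, 0.830 and 1.03 CPM in Toxf/fPdcd1Cre libraries. The groups did not overlap, and -1.63 ± 0.445 on the log2 scale did not pass (adjusted p = 0.125, edgeR). Cxcl9 (chr5:92321347-92328079), Cxcl10 (chr5:92346638-92348889) and Cxcl11 (chr5:92359544-92365485) lie next to one another on the minus strand, and Cxcl10 and Cxcl11 overlap Art3 on the plus strand. The transcript of interferon-gamma itself, Ifng, was at 0 to 0.410 CPM in the 5 libraries and was not tested.

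**Figure D3:**
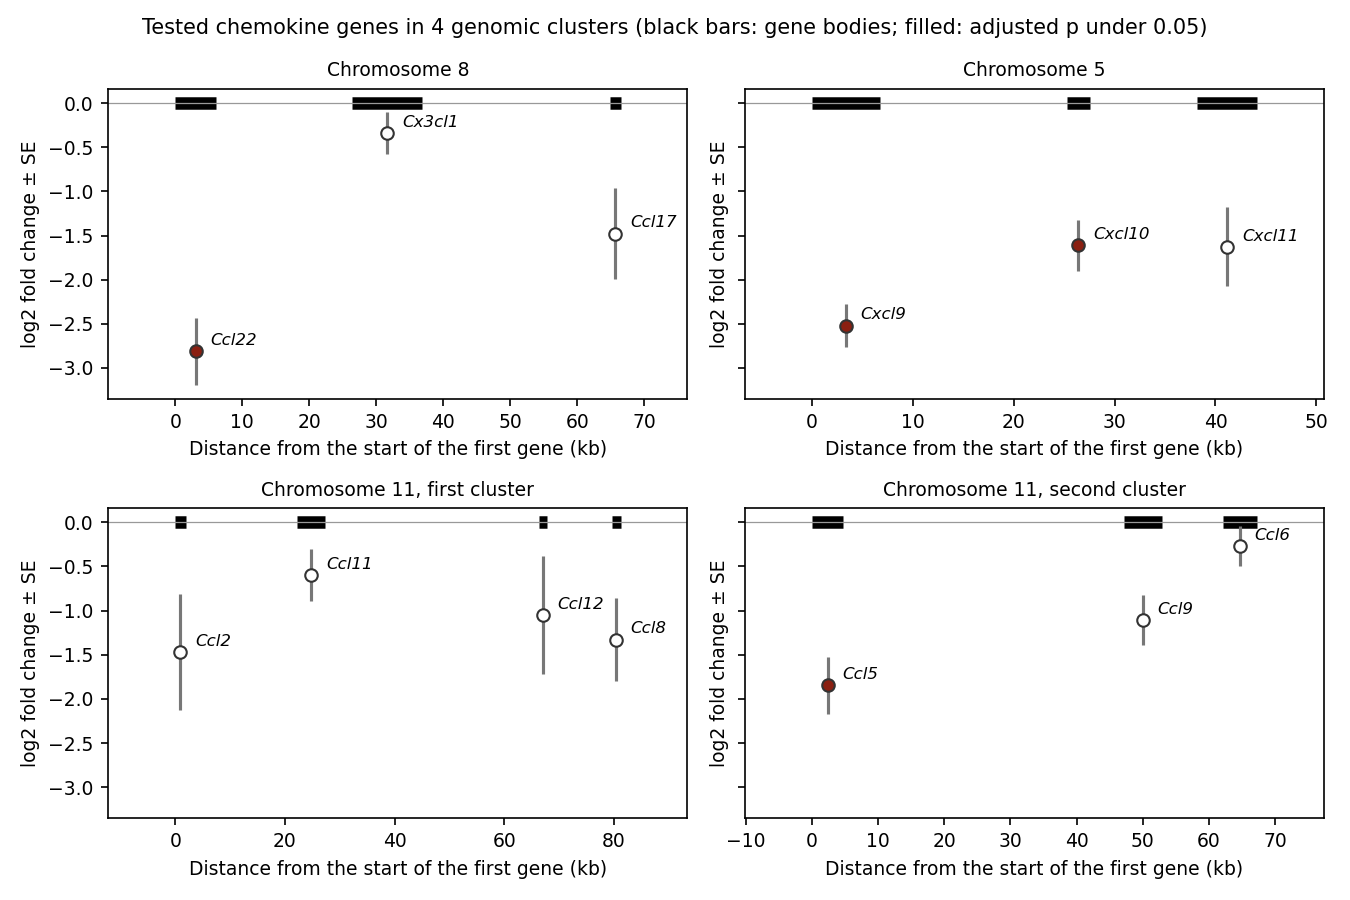
Log2 fold change (y axis, error bars 1 SE) of tested chemokine genes against distance in kb from the start of the first gene shown, for the clusters on chromosomes 8, 5 and 11. Black bars at 0 are gene bodies, and filled points had an adjusted p under 0.05. Cx3cl1 lies at -0.34 between Ccl22 at -2.81 and Ccl17 at -1.48, and Cxcl9, Cxcl10 and Cxcl11 all lie at -1.61 or lower.

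Promoter sequences are shown for Cxcl9 and Cxcl10, the interferon-induced neighbours that fell, and for Ccl20, a gene that fell elsewhere in the genome. All come from the RefSeq promoter table (GRCm38.p6) and were chosen with their values known. Each run is the 250 bases before the annotated start, read in the gene's direction. Capitals mark matches, on either strand, to the consensus of the NF-kappa B site (kappa B), to the interferon-stimulated response element (GAAA, 2 bases of any kind, GAAA) or to the gamma-activated sequence TTCNNNGAA.
Cxcl9, chr5:92328080-92328329, minus strand: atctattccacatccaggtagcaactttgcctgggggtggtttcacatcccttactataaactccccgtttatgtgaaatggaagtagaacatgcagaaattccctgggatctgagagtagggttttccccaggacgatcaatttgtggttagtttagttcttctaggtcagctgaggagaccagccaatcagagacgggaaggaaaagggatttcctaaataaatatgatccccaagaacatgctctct
Cxcl10, chr5:92348890-92349139, minus strand: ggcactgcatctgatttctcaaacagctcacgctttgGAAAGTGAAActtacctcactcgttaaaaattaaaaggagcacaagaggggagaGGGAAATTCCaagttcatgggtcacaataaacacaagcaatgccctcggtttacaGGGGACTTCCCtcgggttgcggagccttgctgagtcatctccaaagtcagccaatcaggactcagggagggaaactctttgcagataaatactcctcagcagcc
Ccl20, chr1:83116516-83116765, plus strand: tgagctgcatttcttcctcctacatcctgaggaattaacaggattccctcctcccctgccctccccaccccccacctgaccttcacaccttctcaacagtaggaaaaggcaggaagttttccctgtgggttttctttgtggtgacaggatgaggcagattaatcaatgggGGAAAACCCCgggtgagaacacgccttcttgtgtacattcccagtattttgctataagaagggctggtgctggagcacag
In Cxcl10 the interferon element begins 213 bases and the kappa B matches 159 and 104 bases before the start, the latter as 2 overlapping matches. Ccl20 has 1 kappa B match, 80 bases before the start, and the window of Cxcl9 holds none of these letter patterns. The kappa B consensus occurs in the same window of 7.25% of 32851 mouse promoters, the interferon element in 2.98% and the gamma-activated sequence in 7.02%. Of the 34 promoters of 28 chemokine ligand genes in the table, 7, 3 and 2 hold them. Those with a kappa B match belong to Ccl1, Ccl9, Ccl20, Cxcl1, Cxcl2, Cxcl3 and Cxcl10, of which only Ccl20 and Cxcl10 were called as lower. Of the other called genes, Ccl22, Ccl21a and Cxcl9 hold none of these patterns. The window listed for Ccl21b, chr4:42172870-42173119, ends far before the gene's position given above (chr4:42255767-42256432). It is therefore not read as the promoter of that gene. Ccl19 holds the interferon element, 208 bases before the RefSeq start, and Ccl5 has no promoter among the 34. Only the first 38 bases of the Ccl19 window lie outside the gene as GENCODE places it, so that match falls inside the gene. The kappa B match of Ccl1 does too, as 0 bases of its window lie outside. A match describes letters only and shows neither binding nor a cause.

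Lymphocyte-made chemokines were led by Ccl5. This ligand of CCR1, known from cytotoxic cells (chr11:83525778-83530518, minus strand), had 502 and 652 counts in Toxf/f and 238, 114 and 91 counts in Toxf/fPdcd1Cre libraries. The groups did not overlap, and Toxf/fPdcd1Cre replicate 1 was again the highest of its genotype. The log2 fold change was -1.85 ± 0.318 (adjusted p = 0.0143, edgeR) and -2.44 without that library, and the call ended without the shared Toxf/f library (adjusted p = 0.133) or Toxf/f replicate 3 (0.294). Xcl1, the ligand of XCR1 on cross-presenting dendritic cells, was at 3.27 and 3.43 CPM in Toxf/f and 2.26, 1.53 and 1.17 CPM in Toxf/fPdcd1Cre libraries, and at -1.02 ± 0.406 on the log2 scale it did not pass (adjusted p = 0.383, edgeR). Ccl3, Ccl4 and Ccl1 had 0 to 21 counts per library and were not tested.

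Markers of cytotoxic cells, in which Ccl5 is well known, were read beside it. Of 8 tested natural killer and cytotoxic markers 0 fell and 2, Klrk1 and Klrb1c, rose, beside 1.51% and 0.135% of all genes. At an unadjusted p under 0.05 (edgeR) 1 was lower and 4 were higher, beside 7.26% and 3.08% of all genes. The median log2 fold change over the list was 0.32. The summed level of the list was 89.4 and 89.1 CPM in Toxf/f and 199, 120 and 114 CPM in Toxf/fPdcd1Cre libraries, highest in replicate 1. Gzma, the most abundant of the list, made up much of this sum, at 55.8 and 49.2 CPM in Toxf/f and 126, 75.0 and 73.5 CPM in Toxf/fPdcd1Cre libraries. Ncr1, a defining marker of natural killer cells, was at 0.120 to 0.344 CPM.

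Among epithelial and tissue chemokines 1 of 7 tested genes fell. Ccl20, the ligand of CCR6, had 86 and 180 counts in Toxf/f and 46, 13 and 22 counts in Toxf/fPdcd1Cre libraries. Its log2 fold change was -2.16 ± 0.473 (adjusted p = 0.0452, edgeR), close to the threshold, and -2.85 without Toxf/fPdcd1Cre replicate 1. The call ended without any library other than Toxf/fPdcd1Cre replicate 1, with adjusted p from 0.0620 to 0.695. Cxcl16, a transmembrane ligand of CXCR6, lay just outside the threshold, at 44.1 and 62.7 CPM in Toxf/f and 37.0, 25.0 and 24.9 CPM in Toxf/fPdcd1Cre libraries (log2 fold change -0.88 ± 0.203, adjusted p = 0.0578, edgeR). Cxcl13, which guides B cells through CXCR5, Cxcl14 and Ccl27a had log2 fold changes of -0.92, -0.95 and -0.67 (adjusted p = 0.496, 0.595 and 0.538, edgeR), and Ccl27b, a near copy of Ccl27a, had 13.85 and 35.25 estimated counts in Toxf/f and 7.5, 2.25 and 0.5 in Toxf/fPdcd1Cre libraries and did not pass. Ccl28 and Cxcl17 had 2 to 18 counts per library and were not tested.

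Of 11 tested genes of the inflammatory and myeloid class 0 passed in edgeR with all libraries. At an unadjusted p under 0.05 in that fit 5 were lower and 0 higher, beside 7.26% and 3.08% of all genes. Of these 5, Ccl2, Cxcl1 and Cxcl2 passed the filter on low counts through the Toxf/f libraries, where they are high, and so give no support. Ccl9 was at 11.3 and 15.6 CPM in Toxf/f and 8.47, 5.81 and 4.47 CPM in Toxf/fPdcd1Cre libraries (log2 fold change -1.11 ± 0.280, adjusted p = 0.0894, edgeR). Ccl6, made by myeloid cells, overlapped between the genotypes, at 15.7 to 24.0 CPM and 13.8 to 20.2 CPM, with a log2 fold change of -0.27 ± 0.226 (adjusted p = 0.798). Ccl8 was at 6.98 and 6.69 CPM in Toxf/f and 5.12, 1.53 and 1.51 CPM in Toxf/fPdcd1Cre libraries, Ccl11, a ligand of CCR3, at 16.1 and 15.2 against 15.6, 8.04 and 7.36 CPM, and Ccl12 at 2.24 and 2.41 against 2.39, 0.702 and 0.275 CPM. In Ccl11 and Ccl12 Toxf/fPdcd1Cre replicate 1 lay within the Toxf/f range, in Ccl8 below it, and in all 3 genes the other 2 libraries were lower still.

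Ccl24, a ligand of CCR3, was uneven within each genotype, at 2.88 and 0.663 CPM in Toxf/f and 7.52, 0.255 and 0.344 CPM in Toxf/fPdcd1Cre libraries. Its log2 fold change of 0.61 ± 1.10 rests on Toxf/fPdcd1Cre replicate 1 and was -2.56 without it (adjusted p = 0.932 and 0.134, edgeR). The neutrophil-attracting genes Cxcl1, Cxcl2, Cxcl3 and Cxcl5 and the monocyte-attracting gene Ccl2 had 0 to 28 counts per library. Of these, Cxcl2 had 15 and 13 counts in Toxf/f and 3, 0 and 1 counts in Toxf/fPdcd1Cre libraries, and did not pass. Ccl7, Cxcl15 and Ccl26 were not tested, and Ccl26 was at 0 in every library.

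Toxf/fPdcd1Cre replicate 1 lay above both other libraries of its genotype in 26 of the 30 tested chemokine genes, and in 38.2% of all tested genes. Without it 16 chemokine genes were called as lower, where 4.21% of all tested genes were, and none as higher (0 in the same edgeR fit). The 16 were the 8 named above and Ccl8, Ccl9, Ccl11, Ccl12, Ccl27b, Cxcl2, Cxcl11 and Cxcl16, of which Ccl27b and Cxcl2 passed the filter through Toxf/f libraries and give no support. Among the others Ccl11 stood at -1.06 (adjusted p = 0.0190, edgeR) and Ccl8 at -2.20 (adjusted p = 0.00586). Without the shared Toxf/f library, 3 were past the threshold, Ccl21a, Ccl21b and Cxcl9, and without Toxf/f replicate 3 there were 2, Ccl21b and Cxcl9. All genes called as lower then made up 0.323% and 0.194% of those tested. Without Toxf/fPdcd1Cre replicate 2 the count was 7, beside 1.22% of all tested genes, and without replicate 3 it was 6, beside 0.733%. With 1 Toxf/f library left, that lone Toxf/f library is assumed to vary like the others. Compared within an age, on log2(CPM + 0.5), the 8 genes differed by -2.67 to -1.01 among libraries from 3-week-old mice. Between those from 4-week-old mice they differed by -3.54 to -1.44. In all 8 each Toxf/fPdcd1Cre library lay below both Toxf/f libraries, so these signs were fixed beforehand and are no test of age.

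**Figure D4:**
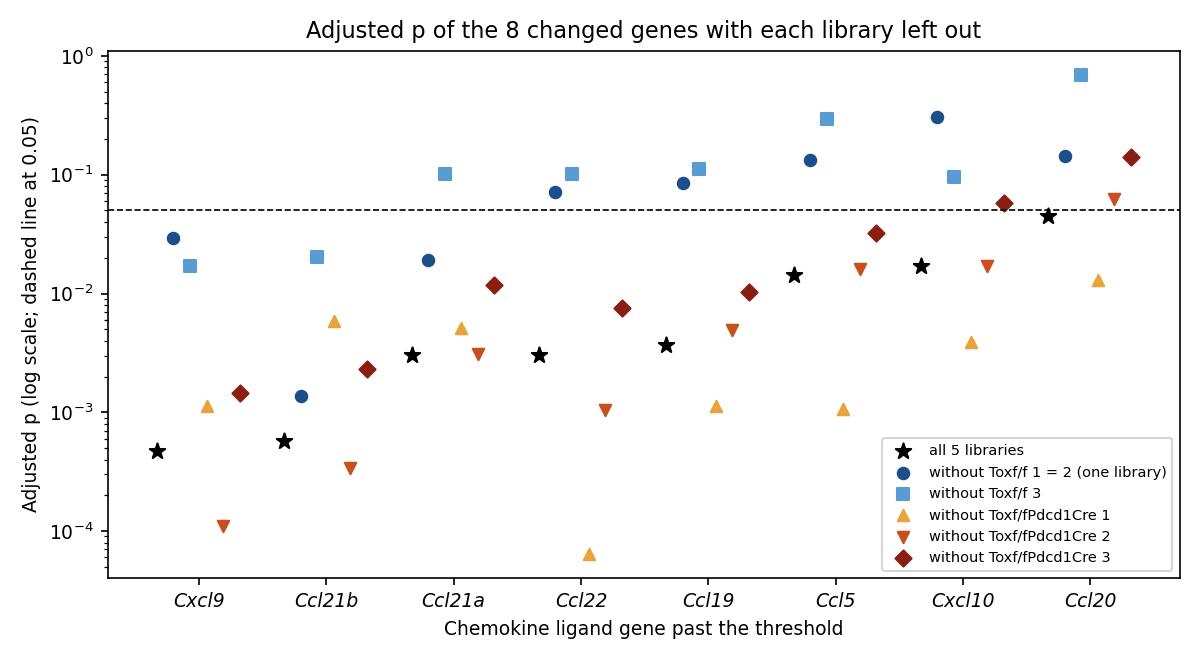
Adjusted p (log axis, dashed line at 0.05) of the 8 chemokine genes that fell, with all 5 libraries (stars) and with each library left out (1 symbol per library). Cxcl9 and Ccl21b stay below the line in all 5 cases, and the other 6 genes rise above it without at least 1 Toxf/f library.

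The receptors that these ligands bind moved in part. Of 17 tested chemokine receptor genes 3 were lower and 0 higher, beside 1.51% and 0.135% of all genes. Ccr7, the receptor for CCL19 and CCL21, was at 90.3 and 106 CPM in Toxf/f and 29.3, 19.98 and 15.3 CPM in Toxf/fPdcd1Cre libraries, and fell by 2.19 ± 0.220 on the log2 scale (adjusted p = 0.000508, edgeR), also with any 1 library left out. Ccr4, the receptor for CCL17 and CCL22, was at 59.9 and 60.2 CPM in Toxf/f and 36.4, 23.0 and 26.9 CPM in Toxf/fPdcd1Cre libraries (log2 fold change -1.06 ± 0.179, adjusted p = 0.0125, edgeR). Its call ended without either Toxf/f library (adjusted p = 0.155 and 0.209) or without Toxf/fPdcd1Cre replicate 3 (0.05004). Ccr6, which binds CCL20, was at 2.63 and 6.81 CPM in Toxf/f and at 0.752 CPM or less in Toxf/fPdcd1Cre libraries (adjusted p = 0.0145, edgeR; 0.448 without Toxf/f replicate 3).

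The receptors of the cortical ligands were abundant and overlapped between the genotypes. Ccr9 was at 1221 to 1238 CPM in Toxf/f and 958 to 1283 CPM in Toxf/fPdcd1Cre libraries, and Cxcr4 at 338 to 451 CPM and 274 to 476 CPM (adjusted p = 0.897 and 0.988, edgeR). Cxcr3, Ccr1 and Xcr1, which bind the interferon-induced chemokines, CCL5 and XCL1, did not pass, with log2 fold changes of 0.24, -1.20 and -0.74 (adjusted p = 0.945, 0.173 and 0.319, edgeR). None of 4 tested atypical receptors, which capture chemokines without G protein signalling, and none of 17 genes of signalling below the receptors was called (0 in each list by edgeR). At an unadjusted p under 0.05 these lists held 2 and 2 lower genes and 0 and 1 higher genes, beside 7.26% and 3.08% of all genes.

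Of 26 tested genes known to act upstream of chemokine transcription 8 were lower and 0 higher, beside 1.51% and 0.135% of all genes. They included Relb, Rel, Tnfrsf11a, Irf7, Cd40lg, Lta and Nfkb2, and the first 5 of these are described. Relb, a subunit of the alternative NF-kappa B pathway, was at 32.9 and 39.5 CPM in Toxf/f and 13.9 to 20.4 CPM in Toxf/fPdcd1Cre libraries, a difference of -1.12 ± 0.183 on the log2 scale (adjusted p = 0.0107, edgeR). Rel, another NF-kappa B subunit, fell by 0.85 and Irf7, an interferon regulatory factor, by 1.28 on the log2 scale. Cd40lg, the ligand of CD40, fell by 2.35 (a log2 fold change of -3.28 without Toxf/fPdcd1Cre replicate 1) and Tnfrsf11a, which encodes RANK, a receptor in the maturation of medullary epithelium, by 1.48. With Toxf/f replicate 3 left out none of the 8 passed (adjusted p = 0.252 to 0.445, edgeR), and all but Rel without the shared Toxf/f library.

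Marker genes of the cells known to make these chemokines were read beside them. Of 8 tested medullary epithelial markers 2 were lower, Krt14 and Tnfrsf11a, beside 1.51% of all genes. The 8 had a median log2 fold change of -0.92, with 6 below 0 and 2 above 0. Cldn4, at 18.8 and 19.6 CPM in Toxf/f and 25.7, 18.6 and 18.6 CPM in Toxf/fPdcd1Cre libraries, was above 0. Its log2 fold change was 0.13 ± 0.187 (adjusted p = 0.911, edgeR). The summed level of the 8 was 475 to 531 CPM in Toxf/f and 452 to 463 CPM in Toxf/fPdcd1Cre libraries. Ly6d, the most abundant of the list, made up much of this sum, at 276 and 265 CPM in Toxf/f and 265, 334 and 334 CPM in Toxf/fPdcd1Cre libraries. The other 7 markers summed to 198 and 267 CPM in Toxf/f and 199, 118 and 124 CPM in Toxf/fPdcd1Cre libraries. Aire and Fezf2, regulators of self-antigen expression there, stood at 19.0 to 21.1 and 19.3 to 20.7 CPM in Toxf/f and at 3.71 to 13.8 and 3.77 to 11.6 CPM in Toxf/fPdcd1Cre libraries (adjusted p = 0.158 and 0.0666, edgeR). Of 16 dendritic cell markers 4 were lower, Fscn1, Flt3, H2-Eb1 and Cd74, beside 1.51% of all genes. Of the 16, 14 had log2 fold changes below 0 and 2 above 0. The summed level of the list was 2987 to 3592 CPM in Toxf/f and 1819 to 2385 CPM in Toxf/fPdcd1Cre libraries. Fscn1, known from migratory dendritic cells, was at 92.5 and 104 CPM in Toxf/f and 53.6, 18.1 and 19.7 CPM in Toxf/fPdcd1Cre libraries, with replicate 1 between the groups as for Ccl22. No marker of these 2 lists was at 0 in all libraries, and their part in the fall of the medullary and interferon-induced chemokines was not tested.

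Markers of cortical epithelium stood beside Ccl25 and Cxcl12, with 0 of 8 lower and 0 higher by edgeR (0 and 0 at an unadjusted p under 0.05), a median of 0.18 and a summed level of 3368 to 3780 CPM in Toxf/f and 3709 to 4383 CPM in Toxf/fPdcd1Cre libraries. Of 11 macrophage and monocyte markers none was called (0 by edgeR), and 4 were lower at an unadjusted p under 0.05, beside 7.26% of all genes. The 11 summed to 924 to 1025 CPM in Toxf/f and 578 to 735 CPM in Toxf/fPdcd1Cre libraries. None of 9 mesenchymal and endothelial markers was called (0 by edgeR), and 1 was higher at an unadjusted p under 0.05, beside 3.08% of all genes. The sum of the 9, 711 CPM in Toxf/fPdcd1Cre replicate 1, stood above the 455 to 534 CPM of the other 4 libraries. Of 6 B cell markers 1 was lower, Igkc, beside 1.51% of all genes. The sum of the 6 was 185 to 207 CPM in Toxf/f and 50.6 to 68.4 CPM in Toxf/fPdcd1Cre libraries. Igkc, an immunoglobulin light chain gene, made most of this difference, and the other 5 markers summed to 51.7 and 74.8 CPM in Toxf/f and 48.0, 49.6 and 39.97 CPM in Toxf/fPdcd1Cre libraries. The part of these cells in the chemokine values was not tested.

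Summed by class, medullary chemokines stood at 37.2%, 27.4% and 23.9% of the Toxf/f mean in the 3 Toxf/fPdcd1Cre libraries, interferon-induced chemokines at 36.6%, 17.8% and 22.2%, and lymphocyte-made chemokines at 47.3%, 21.9% and 19.9%. Cortical chemokines stood at 114%, 110% and 116%. The sums follow their most abundant member, which is Ccl21a for the medulla, Ccl25 for the cortex and Ccl5 for lymphocytes. Dendritic cell markers, whose sum is led by Cd74 and H2-Aa, stood at 72.5%, 65.6% and 55.3% in the same libraries. Medullary epithelial markers stood at 92.1%, 89.8% and 91.1%, or at 85.6%, 50.6% and 53.3% with Ly6d left out.

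**Figure D5:**
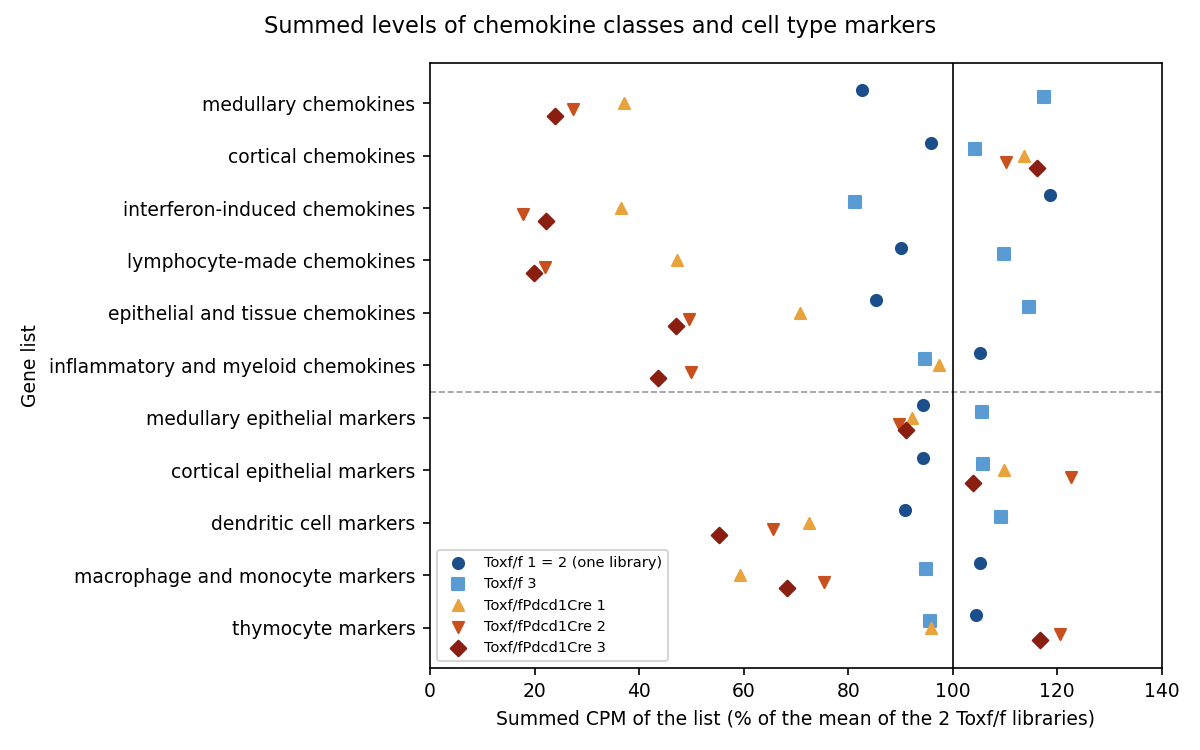
Summed CPM of each chemokine class (above the dashed line) and of marker lists (below it) in each library, as a percentage of the mean of the 2 Toxf/f libraries (x axis). Medullary, interferon-induced and lymphocyte-made chemokines lie at 47.3% or less in all Toxf/fPdcd1Cre libraries, while cortical chemokines lie between 110% and 116%.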

How the data were processed

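The authors deposited 1 table per sample holding per gene the FPKM and an estimated count, per the file headers. fastp 0.18.0, HISAT2 and StringTie 1.3.1 are named per the submitters' processing notes, without saying which made the counts. The build, the annotation and the strand setting have no statement in those notes. Between 8.81% and 9.84% of genes per library had a count that was not whole, so the deposited estimated counts were rounded. Identical files were counted as 1 library.

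Genes were filtered with filterByExpr, scaled by TMM and tested over the whole table with edgeR 4.0.16 (R 4.3.3) for Toxf/fPdcd1Cre against Toxf/f, without covariates, with Benjamini-Hochberg adjustment over 14121 genes and a threshold of 0.05. Alternatives used limma 3.58.1 and DESeq2 1.42.0, among others. Simulated counts of 14121 genes were tested too: of 200 genes set 2-fold apart 78.5% were found, beside 7 false calls, of 200 set 4-fold apart 92%, beside 7, and without any change 0 genes were called. The counts were drawn independently, with a spread set by the level of a gene alone and with changed genes at 1 CPM or more. No simulated library stood apart as Toxf/fPdcd1Cre replicate 1 does, so these shares need not hold for the real data.

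By the naming rule, chemokine genes past the test or with a mean of at least 1 CPM were named with their values and others by counts, then Tox, receptors that passed or that bind the called ligands, at most 6 called genes of the upstream list, and called or the 2 most abundant marker genes. Ddx3y, Cd4, Krt8, Aire, Fezf2, Cldn4, Cd83, Ncr1, Ifng, Ccr2, Pf4, Mif and Ppbp were named outside it after their values were seen. Some genes that the rule gave are left out of the text. The members, lists and rule were chosen with earlier results of these data known. Positions and transcripts come from GENCODE M21 (GRCm38), matched by Ensembl identifier for all 39 genes, a build that the deposited values need not share. Copies were aligned with Biopython 1.88, and figures drawn with matplotlib 3.10.9.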

Additional observations from a re-analysis of the deposited data

How the results depend on the processing

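Of the alternatives, the number of chemokine genes called as lower (8 with the settings used) stayed between 6 and 11 with other scalings, no low-count filter, DESeq2, limma-voom, limma on filtered FPKM, age as a covariate, identical files counted separately or copies summed. With limma on log2(FPKM + 1) without a filter, 22 of 37 tested chemokine genes were lower at an unadjusted p under 0.05. The share of all genes at that level was not computed for this fit. Its median log2 fold change was -0.738 for the chemokine genes and -0.0237 for all genes tested. The number called as lower was 0 there, and 2 with at least 10 CPM in 3 libraries, where 10 chemokine genes were left. With each library left out it ranged from 2 to 16, and no setting called a chemokine gene as higher. The replicate numbers do not pair the samples by any label. Same-numbered libraries had correlations of their deviations of -0.174, 0.0878 and -0.146, and a replicate block gave 10 lower chemokine genes with the shared Toxf/f library as number 1 and 19 as number 2, 435 and 868 called genes in all, and 5 and 7 receptors. All called genes, 232 with the settings used, numbered 417 without a filter, 67 with at least 10 CPM, 355 with DESeq2, 113 and 101 with limma on log2(FPKM + 1) and log2(FPKM + 0.1), 44 without the FPKM filter, 125 with age, 380 with identical files separate, and 31 to 606 with a library left out. Called receptors, 3 with the settings used, numbered 7 without a filter, 1 with at least 10 CPM, 5 with DESeq2, 0 with unfiltered FPKM, 5 with identical files separate and 1 to 5 with a library left out. Tox was called in all 19 alternatives. Cxcl9 passed in 17 of 18, Ccl21b in 16 of 17, Ccl21a in 17 of 19, Ccl22 in 16 of 19, Ccl19 in 15 of 18, Ccl5 in 15 of 19, Cxcl10 in 13 of 19 and Ccl20 in 7 of 18, all with negative fold changes. Reversals concerned 3 genes that did not pass with the settings used. Ccl24 was at -0.60 with limma-voom, -0.19 and -0.70 with limma on log2(FPKM + 1) and log2(FPKM + 0.1), -0.19 unfiltered, -2.38 with the replicate block as number 2 (called there, adjusted p = 0.0262, edgeR), -0.0976 with Toxf/f replicate 3 left out and -2.56 with Toxf/fPdcd1Cre replicate 1 left out (2.01 without the shared Toxf/f library). Ccl6 was at 0.0655 without the shared Toxf/f library and -0.55 without Toxf/f replicate 3, and Cx3cl1 ranged from -0.64 without the former to 0.0446 without the latter. The cause of these differences was not tested. With 2 Toxf/f libraries, 1 library decides many calls, and genes with few counts allow no firm statement.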

Other observations

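Some chemokine ligands have symbols outside the pattern used above. Pf4, the platelet factor CXCL4, was at 1.35 and 1.87 CPM in Toxf/f and 3.01, 1.40 and 1.79 CPM in Toxf/fPdcd1Cre libraries, and the chemokine-like cytokine gene Mif was at 89.3 and 66.3 CPM against 89.2, 72.1 and 83.0 CPM. Neither passed the test (adjusted p = 0.903 and 0.954, edgeR). The platelet gene Ppbp was at 0.576 CPM or less in each library and was not tested.

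Within pairs that share a receptor, proportions also differed between libraries. The FPKM ratio of Cxcl9 to Cxcl10 was 0.341 and 0.418 in Toxf/f and 0.178, 0.200 and 0.230 in Toxf/fPdcd1Cre libraries (two-sided exact permutation p = 0.1, the smallest possible). That of Ccl19 to Ccl21a was 0.0787 and 0.0525 against 0.0490, 0.0339 and 0.0295 (exact permutation p = 0.2). Ccr2, the receptor for CCL2, stood at 62.7 CPM in Toxf/fPdcd1Cre replicate 1 and at 6.34 to 14.3 CPM in the other 4 libraries, and Ccl24 was highest in the same library.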
